A study of Caenorhabditis elegans with 12 samples.

Results

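The genes described here are 10 Caenorhabditis elegans genes for small secreted antimicrobial peptides, namely the caenacin genes cnc-1, cnc-2, cnc-4 and cnc-6 and the neuropeptide-like protein genes nlp-27, nlp-28, nlp-29, nlp-30, nlp-31 and nlp-34. They were found on the array by name, through the gene that the platform's annotation gives for each probe set. Of the 10 genes, 9 had a probe set, 1 each and none shared with another annotated gene, among 22625 probe sets in all. No annotated probe set named nlp-34, which is not analysed here. Of the 9, 8 passed the filter on dim probe sets and were tested, and cnc-1 did not pass it.

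The 12 arrays measured total RNA from lysates of worms of 2 strains, with 6 arrays each. All worms carried the reporter egl-15::gfp and pRF4, which the labels call a transformation marker and which is generally known to hold a dominant allele of the cuticle collagen gene rol-6. The HLH strain carried in addition the constructs pHS::hlh-8 and pHS::hlh-2, for the nematode Twist protein and its E/Daughterless partner. The marker strain did not carry them. The design text gives 3 biological replicates of each genotype with and without heat shock. The second number of an array title is called the code here. Codes 1 and 2 belong to the HLH strain, and codes 3 and 4 to the marker strain. No label says which codes were heat shocked. The heat shock gene hsp-16.41 had a mean signal of 84 ± 49 (SD, n = 3) at code 1, 4756 ± 487 at code 2, 66 ± 35 at code 3 and 4718 ± 867 at code 4. The first number of the title, 1 to 3, is called the set. The array titled 2_2 (2) repeats a title of set 2, so the set it belongs to is uncertain. The sources used here do not give worm age, stage or sex, the number of worms per lysate or the number of transgenic lines behind a strain.

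Worms lack circulating immune cells, and their epidermis answers infection and injury by making small peptides. The nlp-29 group and the caenacins are best known for being switched on in the epidermis by the fungus Drechmeria coniospora. Wounding also turns on nlp-29, through the TIR-1, NSY-1, SEK-1 and PMK-1 kinase cascade and the STAT-like factor STA-2, and high osmolarity turns it on as well. The caenacin gene cnc-2 is instead known to need the TGF-beta-like ligand DBL-1 with its receptor and SMA proteins. In the RefSeq gene table for assembly WBcel235, nlp-34, nlp-31, nlp-30, nlp-29, nlp-28 and nlp-27 are 6 consecutive protein-coding genes on chromosome V. The genes cnc-11, cnc-1, cnc-5, cnc-4, cnc-3 and cnc-2 are another 6 consecutive protein-coding genes on chromosome V, while cnc-6 lies on chromosome III.

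Values are MAS5 signals on a linear scale, scaled by the authors to the same trimmed mean on each array, and array medians ran from 180.3 to 208. The number of arrays limits the precision. Of the 9 probe sets, 7 have identifiers that end in _x_at, the suffix Affymetrix gives where probes may also match other transcripts. These are the probe sets of cnc-1, cnc-2 and nlp-27 to nlp-31. Signal from near-identical family members cannot be told apart in them, so their values are uncertain as measures of 1 gene. The probe sets of cnc-4 and cnc-6 do not carry that suffix. No signal is compared between genes, because each probe set has its own response. Lysates hold all tissues, so fewer epidermal cells and less RNA per cell cannot be told apart. Of 21 epidermal marker genes 18 were tested, and none of the 20 with a probe set was at the lowest measurable level on all arrays.

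The strains were compared first, over both codes. The caenacin genes cnc-2, cnc-4 and cnc-6 were higher in the HLH strain, by 2.72-fold, 1.97-fold and 2.94-fold, and on none of the 3 did the arrays of the strains overlap. Of all tested probe sets, 1.13% were called higher in that strain and 1.48% lay higher without overlap. The gene cnc-6 passed the filter only through HLH arrays, and without the filter only cnc-2 of the 3 was called. The 5 nlp genes did not pass the test between strains, with log2 differences of 0.04 to 0.31. All differences are of mean log2 signals, given with a standard error (SE), and a difference was called where the Benjamini-Hochberg adjusted p of limma over 12328 tested probe sets was under 0.05.

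For cnc-2, the caenacin tied to TGF-beta signalling, the signals of the HLH strain were 2347, 3461 and 2426 at code 1 in sets 1, 2 and 3. They were 1902 and 3135 at code 2 in sets 1 and 2, and 2371 on the array titled 2_2 (2). In the marker strain they were 1350, 1103 and 911 at code 3 and 860, 751 and 782 at code 4, in sets 1, 2 and 3. Every HLH array thus lay above every marker array, and the highest HLH values came from set 2. The log2 difference was 1.44 ± 0.15 (SE), higher in 6 of 6 HLH arrays, and its adjusted p in limma was 3.0e-04. By size it held rank 24 among the 12328 tested probe sets.

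For cnc-4, a caenacin gene of the same cluster, the HLH signals were 3734, 6605 and 3305 at code 1 in sets 1, 2 and 3. At code 2 they were 5728 and 7495 in sets 1 and 2, and 4384 on the array titled 2_2 (2). The marker strain gave 2788, 2362 and 1767 at code 3 and 3076, 2848 and 2560 at code 4. The lowest HLH array, 3305, was close to the highest marker array, 3076, while the set 2 arrays of the HLH strain stood well above both. The log2 difference was 0.98 ± 0.19 (SE), with an adjusted p of 0.015 in limma. The call was lost without the filter on dim probe sets, adjusted p = 0.066, and without the 4 arrays of set 2, where the difference was 0.75 and the adjusted p 0.051.

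For cnc-6, the caenacin gene outside the cluster, the HLH signals were 218, 230 and 175 at code 1 and 281, 471 and 266 at code 2, the last on the array titled 2_2 (2). The marker signals were 86.8, 95.7 and 86.3 at code 3 and 135, 159 and 31.5 at code 4. The signal passed the array median on 5 HLH arrays and on 0 marker arrays, so cnc-6 entered the test only through the strain in which it was higher. The log2 difference was 1.55 ± 0.35 (SE), with an adjusted p of 0.033 in limma. The call was the least stable of the 3. Leaving out 1 array at a time, it was kept on 3 of 12 occasions, those without a code 4 array, and leaving out any HLH or code 3 array gave adjusted p of 0.051 to 0.096. Testing without the filter ended it too, at an adjusted p of 0.11, as did leaving out set 2, at 0.075.

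**Figure D1:**
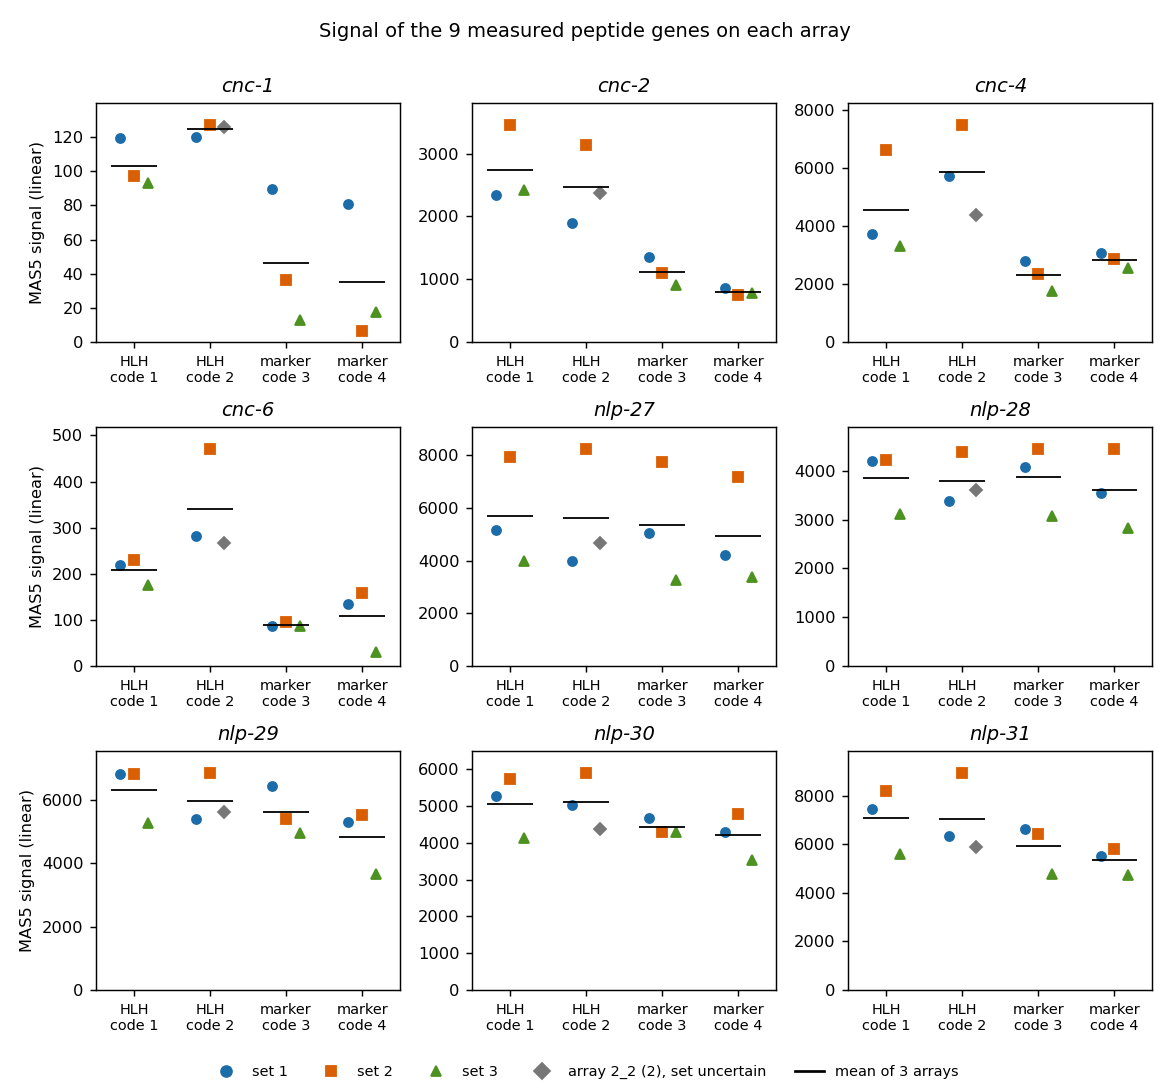
MAS5 signal (linear axis from 0, 1 panel per gene) of the 9 measured peptide genes on each of 12 arrays, by strain and code, with the set shown by symbol and the mean of 3 arrays as a bar. The HLH arrays of cnc-2, cnc-4 and cnc-6 lie above all marker arrays, and the 4 set 2 arrays of nlp-27 lie above all others.

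For cnc-1, which did not pass the filter, signals were below the array median on all 12 arrays. On 2 marker arrays they were at the floor of 16.7 below which values were not used. The HLH arrays read 92.9 to 127 and the marker arrays 6.7 to 89.7, again without overlap. Such a separation was found for 1.48% of the tested probe sets, which do not include cnc-1. The marker arrays of set 1, at 89.7 and 80.6, were close to the HLH range, and the other marker arrays were at 36.2 or below. Fitted without the filter, a choice made after seeing the data, its log2 difference was 1.78 ± 0.49 (SE) and was not called, adjusted p = 0.14 in limma. Both floor values enter that difference.

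Over all genes, 1.13% of tested probe sets were called higher in the HLH strain, and for 1.48% the arrays did not overlap, with HLH higher. Of the 4 measured caenacins, cnc-2 and cnc-4 passed the array median on all 12 arrays, cnc-6 only in the HLH strain and cnc-1 on none, so the number called depends on the filter. Without it 1 of them was called, cnc-2. The median log2 difference was 0.23 over the 5 nlp genes, which passed the array median on all arrays, and 0.05 over all tested probe sets. The members were chosen with earlier results of these data known, in which cnc-6 was already named, so these shares describe the genes and are no independent evidence.

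The nlp genes were nearer to each other in the strains. For nlp-31, whose peptide has antifungal activity, the HLH signals were 7426, 8200 and 5606 at code 1 and 6326, 8946 and 5867 at code 2, the last on the array titled 2_2 (2). The marker signals were 6628, 6430 and 4770 at code 3 and 5494, 5820 and 4748 at code 4. The strains overlapped, and the log2 difference of 0.31 ± 0.14 (SE) was not called, adjusted p = 0.30 in limma. With the set number as a block it was 0.31 ± 0.08 (SE) and was called, adjusted p = 0.027 in limma. That fit, on 11 arrays, called 14.0% of all tested probe sets, 1731 against 335 without the block. The log2 differences were 0.24 ± 0.13 (SE) for nlp-29, the standard reporter gene of epidermal immunity, 0.23 ± 0.12 for nlp-30, 0.16 ± 0.27 for nlp-27 and 0.04 ± 0.15 for nlp-28. With the block their adjusted p in limma ran from 0.076 for nlp-30 to 0.89 for nlp-28. The 95% interval for nlp-29 ran from -0.04 to 0.53.

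**Figure D2:**
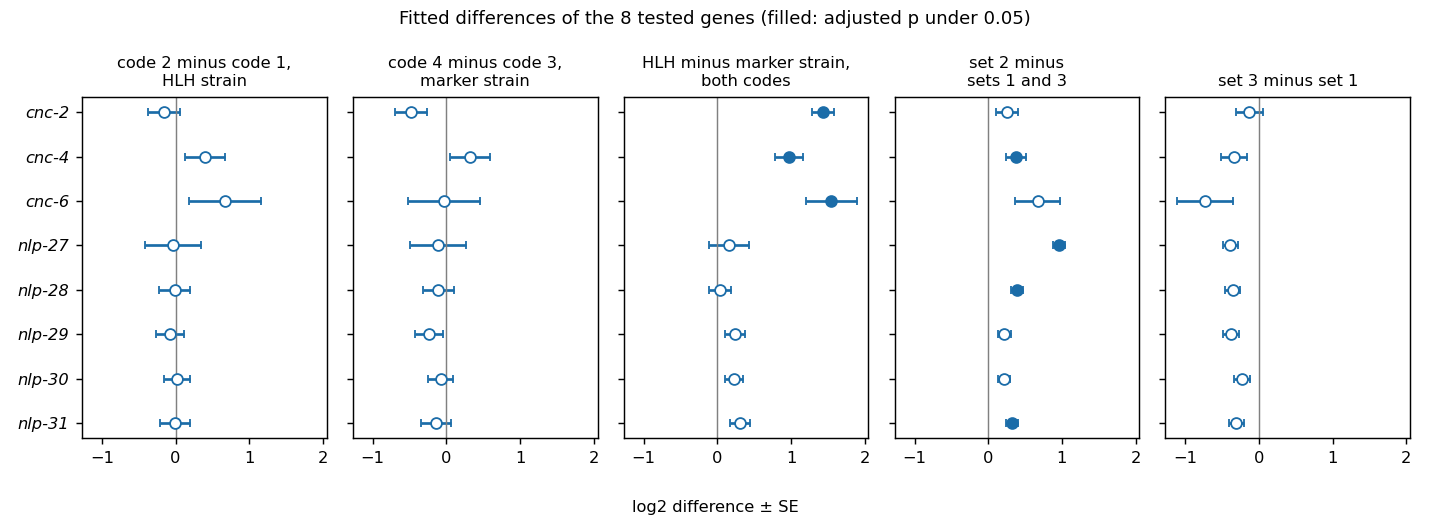
Fitted log2 differences (horizontal axis, ± SE) of the 8 tested peptide genes in 5 comparisons, filled where the adjusted p was under 0.05. The 3 caenacins are filled between strains, and cnc-4, nlp-27, nlp-28 and nlp-31 are filled for set 2.

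The strain difference was examined within each set, because sets differed widely. For cnc-2 the mean HLH minus marker log2 difference was 0.97 in set 1, 1.86 in set 2 and 1.52 in set 3. For cnc-4 it was 0.66, 1.44 and 0.64, and for cnc-6 it was 1.19, 1.42 and 1.75. Because the arrays of the strains did not overlap for these 3 caenacins, all 9 values had to be above 0. Their sign is thus no further evidence, and only their size is informative. They rest on 2 arrays per strain in sets 1 and 2, and on 1 HLH and 2 marker arrays in set 3. The nlp genes ranged from -0.05 for nlp-28 in set 2 to 0.49 for nlp-31 in set 2. With the set as a block the strain differences were 1.41 ± 0.14 (SE) for cnc-2, 1.00 ± 0.13 for cnc-4 and 1.48 ± 0.30 for cnc-6. Their adjusted p in limma were 6.6e-05, 0.00041 and 0.0060. That fit called 14.0% of all tested probe sets, and cnc-6 had passed the filter only through HLH arrays.

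**Figure D3:**
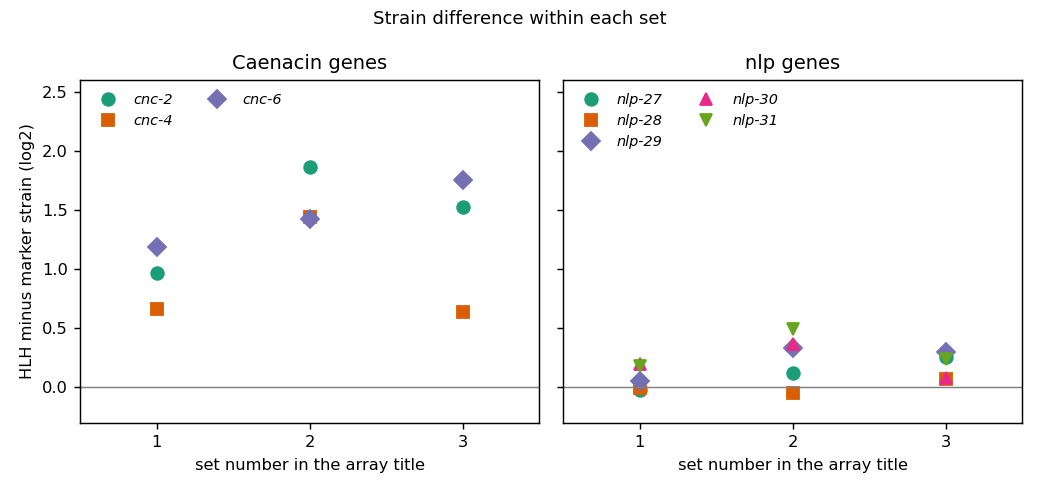
HLH minus marker difference of mean log2 signals (vertical axis) within each set (horizontal axis), for the 3 tested caenacin genes and the 5 nlp genes, 1 point per gene and set and no test. The caenacins lie between 0.64 and 1.86 and the nlp genes between -0.05 and 0.49.

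The codes of a strain were compared next, to ask whether the peptide genes differed between them. None of the 8 tested genes was called between codes 2 and 1 in the HLH strain or between codes 4 and 3 in the marker strain, by limma. In all, 0.0406% and 0.0568% of tested probe sets were called in these comparisons, and an unadjusted p under 0.05 was found for 2.30% and 2.17%. Among the 8 genes an unadjusted p under 0.05 was found for 1, cnc-2 in the marker strain. Its signals were 911 to 1350 at code 3 and 751 to 860 at code 4, without overlap, a separation in this direction that 2.40% of tested probe sets had. The log2 difference of -0.48 ± 0.22 (SE) had an adjusted p of 1.0 in limma. In the HLH strain cnc-2 differed by -0.16 ± 0.22 (SE). With the set as a block none of the 8 genes was called between codes either, while the count over all probe sets for codes 4 and 3 went from 7 to 19.

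For nlp-29 the mean signal was 6299 ± 896 (SD, n = 3) at code 1 and 5961 ± 789 at code 2, and 5609 ± 765 at code 3 and 4831 ± 1013 at code 4. Its log2 difference was -0.08 ± 0.19 (SE) in the HLH strain with a 95% confidence interval of -0.48 to 0.33, and -0.23 ± 0.19 in the marker strain, with an interval of -0.63 to 0.17. The other nlp genes differed between codes by -0.14 to 0.02. In the HLH strain cnc-6 read 175 to 230 at code 1 and 266 to 471 at code 2, without overlap. Of all tested probe sets, 3.65% had a separation in this direction. The gene cnc-6 differed by 0.67 ± 0.49 (SE) in the HLH strain and by -0.03 ± 0.49 in the marker strain, and cnc-4 by 0.40 ± 0.27 and 0.32 ± 0.27. None passed, each with an adjusted p of 1.0 in limma. Whether code differences differed between strains was tested under both ways of matching the codes, keeping the larger p. None of the 8 genes passed in limma or reached an unadjusted p under 0.05. Of all tested probe sets 0% were called and 0.0892% reached that unadjusted p. Keeping the larger p makes the test very strict, so a missing call does not show that the code differences were alike.

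Sets were compared within groups on 11 arrays, without the array titled 2_2 (2). All 8 tested genes had higher fitted levels in set 2 than in sets 1 and 3, and 4 were called, nlp-27, nlp-28, nlp-31 and cnc-4. Set 2 differed in much of the table: 24.8% of all tested probe sets were called higher in it, so 4 of 8 is to be read against a large background. The median log2 difference was 0.35 over the 8 genes and 0.05 over all tested probe sets.

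For nlp-27, at the end of its cluster, the set 2 signals were 7925, 8249, 7734 and 7163 at codes 1 to 4 in turn. In set 1 they were 5177, 3986, 5057 and 4205 at codes 1 to 4. In set 3 they were 3978 at code 1, 3266 at code 3 and 3379 at code 4, and the array titled 2_2 (2) read 4653. All 4 set 2 arrays were above all others, whatever the strain or code. Of all tested probe sets, 12.4% lay higher in set 2 without overlap. If the array titled 2_2 (2) belonged to set 2, nlp-27 would overlap. The log2 difference was 0.96 ± 0.08 (SE), or 1.94-fold, and limma gave an adjusted p of 1.5e-05. Among 12328 probe sets it held rank 41 by p and rank 392 by size.

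For nlp-28 the set 2 arrays read 4228 to 4455 and those of sets 1 and 3 read 2832 to 4203. These ranges nearly touch but do not overlap, a separation seen in 12.4% of all tested probe sets. Its log2 difference was 0.39 ± 0.08 (SE), adjusted p = 0.0023 in limma. It was 0.32 ± 0.08 for nlp-31 with an adjusted p of 0.0085, and 0.38 ± 0.14 for cnc-4 with 0.037. The remaining genes did not pass, with 0.22 ± 0.09 (SE) for nlp-29, 0.21 ± 0.08 for nlp-30, 0.26 ± 0.15 for cnc-2 and 0.67 ± 0.30 for cnc-6, and adjusted p of 0.061, 0.061, 0.16 and 0.092. The call of cnc-4 was lost in 9 of 19 alternatives, with the difference at 0.19 and the adjusted p at 0.24 without the set 2 array of HLH code 1. After quantile normalization nlp-29 and nlp-30 passed, at 0.44 and 0.40, with adjusted p of 0.0019 and 0.0025.

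For cnc-2 and cnc-4 the set 2 values were taken apart by strain. For cnc-2 set 2 lay above the other sets by 0.63 on average in the HLH strain and by -0.07 in the marker strain, and for cnc-4 by 0.65 and 0.06. For nlp-27 the same values were 0.92 and 0.93. A strain by set 2 term, added after these values were seen, was 0.72 ± 0.22 (SE) for cnc-2 and 0.72 ± 0.19 for cnc-4. Neither was called over all tested probe sets, with adjusted p of 0.46 and 0.36 in limma, and 0.0162% of them were called. The unadjusted p values were 0.0058 and 0.0025, and 7.82% of tested probe sets were under 0.05. The term was 0.07 ± 0.18 for nlp-27.

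In set 3 all 8 genes had lower fitted levels than in set 1, by log2 differences of -0.13 for cnc-2 to -0.74 for cnc-6. None was called in limma, where 1.35% of tested probe sets were, and 18.6% had an unadjusted p under 0.05. The 5 nlp genes each had such an unadjusted p. Their differences were -0.39 ± 0.10 (SE) for nlp-27, -0.36 ± 0.10 for nlp-28, -0.38 ± 0.11 for nlp-29, -0.31 ± 0.10 for nlp-31 and -0.23 ± 0.11 for nlp-30, with adjusted p of 0.083, 0.089, 0.10, 0.15 and 0.26. The median of all tested probe sets was -0.01.

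**Figure D4:**
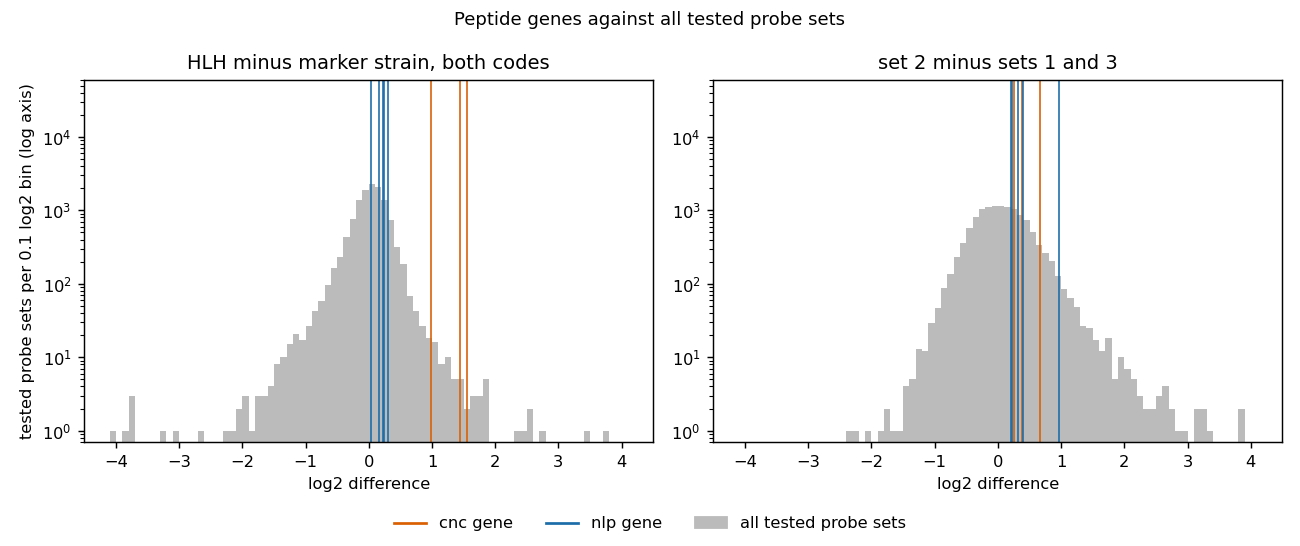
Number of tested probe sets (vertical log axis) in bins of log2 difference (horizontal axis) between strains and for set 2, with the fitted values of the 3 caenacin and 5 nlp genes as lines. Between strains the caenacins lie at 0.98 to 1.55, far in the right tail, while for set 2 the distribution is broad and the member farthest out is nlp-27 at 0.96.

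Markers of other tissues differed in set 2 as well, where 17.4% of all tested probe sets were called lower. Of 8 tested oogenesis and eggshell genes 5 were called lower in set 2 and 1 higher, with a median log2 difference of -0.52. Of 7 tested sperm genes 5 were lower and none higher, with a median of -0.60, and the summed sperm signal was 1253 to 1679 in set 2, 1951 to 2118 in set 1 and 1762 to 2376 in set 3. Of 9 body wall muscle genes 7 were lower and none higher. Among 18 epidermal genes 5 were higher and 7 lower, with a median of 0.04, and among 13 moulting genes 3 were higher and 4 lower. The part of these differences in the set 2 values of the peptide genes was not tested.

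Between strains 1 of the 18 tested epidermal genes was called, rol-6, where 1.13% of all tested probe sets were called higher in the HLH strain. It was 2.07-fold higher there, at a log2 difference of 1.05 ± 0.13 (SE), adjusted p = 0.00078 in limma. All worms carried pRF4 with its rol-6 allele, so signal from the transgene and from the worm's own rol-6 cannot be told apart. The list ran from -0.82 for the collagen gene bli-2 to 1.05, with a median of 0.05. With the set as a block 3 were called higher and 1, bli-2, lower, at an adjusted p of 0.033. The blocked counts here are to be read against the 14.0% of all tested probe sets that the block called in either direction. The summed signal of the list was 75617 to 91427 on HLH arrays and 69558 to 84419 on marker arrays. Of 13 moulting genes 1 was called higher, fbn-1, which encodes a fibrillin-like protein of the apical matrix, at 0.86 ± 0.16 (SE), adjusted p = 0.012, and with the block 4 were called, all higher. None of the 5 tested collagens of the cuticle's annular furrows, whose loss is known to turn on nlp-29, was called between strains, with differences of 0.02 to 0.25. None of 7 osmotic response genes was called either, with a median of 0.14, and gpdh-1, which makes the osmolyte glycerol, was at 0.46 ± 0.18 (SE), adjusted p = 0.22, and passed with the set as a block, adjusted p = 0.020.

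Markers of other tissues were compared between strains as well. All 9 tested body wall muscle genes had differences below 0, from -0.37 to -0.01 with a median of -0.26, and none was called without the block and 6 were called lower with it. Their summed signal was 41191 to 49463 on HLH arrays and 45748 to 59970 on marker arrays. Of 8 tested intestinal genes none was called without the block and 6 were called lower with it. Their median was -0.31, with the esterase gene ges-1 at -0.59 ± 0.20 (SE), adjusted p = 0.16 in limma and 0.00048 with the block. Their summed signal was 32559 to 43470 on HLH arrays and 38780 to 55165 on marker arrays. The block called 14.0% of all tested probe sets. The part of rol-6 or of any of these lists in the caenacin difference was not tested.

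The members of the signalling pathways were looked at for the same contrasts. Where 1.13% of all tested probe sets were called higher in the HLH strain, 2 of 16 tested genes of the p38 kinase and STAT arm were. They were nipi-3, a Tribbles-like kinase gene needed for nlp-29 induction, at 0.55 ± 0.12 (SE) with an adjusted p of 0.030 in limma, and tir-1, the adaptor gene at the top of the cascade, at 0.54 ± 0.13 with 0.041. The next, cebp-1, a bZIP factor gene acting with nipi-3, was at 0.66 ± 0.21 and did not pass, adjusted p = 0.12. The median over the 16 was -0.02. Both calls were marginal: over 22 alternatives nipi-3 was called in 11 and tir-1 in 8, with adjusted p up to 0.15 and 0.12. Of 10 genes of the TGF-beta-like arm none was called between strains, with differences of -0.34 to 0.39. With the block 1 of the 10 was called, where 14.0% of all tested probe sets were called in either direction. It was lon-1, a gene repressed by this pathway, at 0.39 ± 0.13 (SE) without the block, adjusted p = 0.13 in limma, and 0.0032 with it. No gene of either arm was called between codes in either strain.

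In set 2, 6 of the 16 p38 and STAT genes were higher and 3 lower, where 24.8% and 17.4% of all tested probe sets were. The higher ones included sta-2 at 1.06 ± 0.15 (SE), gpa-12, a G protein alpha subunit gene upstream of the cascade, at 0.69 ± 0.10, and the p38 gene pmk-1 at 0.61 ± 0.14. Their adjusted p in limma were 0.00021, 0.00028 and 0.0045. The scaffold gene rack-1 was lower, at -0.40 ± 0.05, adjusted p = 0.00015, but after quantile normalization its difference was -0.08 and was not called, adjusted p = 0.16. In the TGF-beta-like arm 5 of 10 were higher and none lower. They included sma-10 at 1.36 ± 0.15 (SE) and the SMAD genes sma-4 at 0.89 ± 0.11 and sma-3 at 0.78 ± 0.12.

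Other antimicrobial and fungus-induced peptide genes gave a wider view. Of 33 listed, 22 had a probe set of their own and 16 were tested. Between strains 2 were called, both higher in the HLH strain, where 1.13% of all tested probe sets were called higher. The fungus-induced gene fip-1 was 2.32-fold higher, at 1.22 ± 0.25 (SE) with an adjusted p of 0.021 in limma, with HLH arrays at 4253 to 5748 and marker arrays at 1170 to 3222. The related gene fipr-26 was 2.27-fold higher, at 1.18 ± 0.18 with 0.0043, though its ranges of 375 to 1080 and 202 to 388 overlapped. The call of fip-1 was lost without the filter, adjusted p = 0.092, and without the set 1 or set 2 array of either HLH code, adjusted p = 0.053 to 0.062. The call of fipr-26 was lost without set 2, at 0.94 and an adjusted p of 0.050. The neighbour cnc-3, which lies between cnc-4 and cnc-2, was not called at 0.39 ± 0.20 (SE), adjusted p = 0.38, but passed with the set as a block, adjusted p = 0.0079. With the block 7 of the 16 were called, 4 higher and 3 lower, where 14.0% of all tested probe sets were called in either direction. The lower ones were nlp-26 at -0.76 ± 0.19 (SE), adjusted p = 0.055 without the block and 0.0020 with it, fip-2 at -0.29 ± 0.13, 0.30 and 0.015, and fipr-2 at -0.29 ± 0.11, 0.19 and 0.0082. After quantile normalization nlp-26 was also called, adjusted p = 0.035. The median over the 16 was 0.03. The probe sets of cnc-3, cnc-7, fip-2, fipr-21, fipr-26 and nlp-33, named here or below, have suffixes that mark possible matches to other transcripts. Their values are uncertain in the same way.

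In set 2, 7 of these 16 peptide genes were higher and 1 lower, where 24.8% and 17.4% of all tested probe sets were. The cluster gene cnc-3 was higher by 0.69 ± 0.08 (SE), adjusted p = 7.4e-05 in limma. The nlp genes outside the cluster were nlp-25 at 1.25 ± 0.20, nlp-33 at 1.19 ± 0.08 and nlp-26 at 0.51 ± 0.14, with adjusted p of 0.00046, 4.8e-06 and 0.012. The call of nlp-26 was lost without the filter, adjusted p = 0.071, and without the set 2 array of marker code 4, at 0.31 and 0.097. The other higher genes were fipr-21 at 0.51, cnc-8 at 0.48 and fip-2, whose brighter probe set was at 0.26 and the other at 0.47, with adjusted p of 0.025 and 0.0026. The call of the brighter one was lost in 7 alternatives, with adjusted p of 0.066 to 0.12. The gene fip-1 was the lower one, at -0.63 ± 0.20, adjusted p = 0.024. That call was lost after quantile normalization, adjusted p = 0.085, without the filter, 0.15, and without the set 2 or set 3 array of either marker code, 0.060 to 0.17, with the difference at -0.38 and -0.42 without the set 2 arrays of codes 3 and 4. The caenacin gene cnc-7 had disagreeing probe sets, at 0.60 with an adjusted p of 0.011 and 0.39 with 0.083.

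The profiles over the 12 arrays were compared by the root mean square difference of log2 signals, each centred on its own mean. Between pairs of nlp genes it was 0.113 to 0.362, with a median of 0.171 over 10 pairs. It was 0.453 to 0.648 over the 3 pairs of caenacins and 0.431 to 0.905 over the 15 mixed pairs. Genes that vary little lie near each other by this measure, whatever the shape of their profiles. The centred profile of nlp-29 itself had a root mean square of 0.244, and the mean of the 8 tested members had 0.401. The nlp probe sets carry the _x_at suffix, and the part of shared probe matches in their likeness was not tested. Outside the members, the 5 genes nearest to nlp-29 were bcat-1, prmt-5, nep-21, T07D3.4 and B0511.12, at 0.109 to 0.122, where the median over 11746 probe sets was 0.349. The nearest to the mean of the 8 tested members were nhx-1, K02G10.5, E01G6.1, perm-5 and T13C2.3, at 0.111 to 0.161 with a median of 0.457.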

How the data were processed

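Total RNA from worm lysates was labelled with biotin as cRNA, per the labels' protocols. Each deposited value is an intensity for 1 probe set on 1 array, made with MAS5 per the submitters' processing notes, with settings and version not given in the sources used here. All arrays had a 2% trimmed mean of 500.1, and this scaling by the authors was kept. MAS5 subtracts a local background, so ratios of low signals are noisy.

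Signals under the 10th percentile of all values, 16.7, were set to that value before taking log2. After removal of 77 control probe sets, 12328 probe sets entered the tests, those above the median of the array on 3 or more of the 12 arrays. Probe sets were named from the platform annotation, updated through gene IDs with the RefSeq table of WBcel235. Strains and codes were compared in limma 3.58.1 under R 4.3.3, by lmFit over 4 groups and eBayes with trend, on 8 residual and 4.87 prior degrees of freedom. The set comparisons added the set to the groups on 11 arrays, with 5 and 7.76. Tests were two-sided and adjusted by Benjamini-Hochberg over all tested probe sets. The fit was tested on simulated data.

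Set numbers pair the arrays: deviations from group means correlated by 0.307 to 0.785 in all 15 pairs of the same set, which were all over the limit of 0.1, and by -0.691 to 0.526 in 30 other pairs. Blocked values are given where they change a call of a member or of a gene the text names.

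The members, gene lists, tests and named genes were chosen with earlier results of these data known. Named genes were all probe sets of the members, of other lists at most the 4 with the smallest p and any called peptide gene, and the 5 genes nearest in profile. Further lists were intestine, pharynx and neurons: none of their 8, 9 and 9 tested genes was called between strains without the block, and 6, 1 and 0 were called lower with it. In set 2 they had 1, 1 and 1 higher and 4, 4 and 5 lower. Alternatives were quantile normalization, other floors and filters, no trend, the block, each array left out, and other treatments of the array titled 2_2 (2).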

Additional observations from a re-analysis of the deposited data

How the results depend on the processing

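None of the 1700 values of named genes under alternatives reversed a call. Of these, 1605 kept their side of the threshold, 73 lost a call, 22 gained one and 55 changed sign while uncalled in both fits. The strain call of cnc-2 held in all 22 alternatives and those of cnc-4 and cnc-6 in 20 of 22 and 9 of 21. The set 2 calls of nlp-27 and nlp-28 held in all 19, and that of nlp-31 was lost with the array titled 2_2 (2) in set 2, adjusted p = 0.068 in limma. Members called between strains fell from 3 to 1 without the filter and to 1 without set 2, and in set 2 from 4 to 2 with that array in set 2. Without a filter more probe sets share the adjustment, and the trend of eBayes is fitted on more probe sets as well. The cause of these and the other shifts was not tested.

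Counts over all probe sets moved more. Between strains 335 were called, 1731 with the replicate block, 1663 with the replicate block and the uncertain array in set 3, 195 without set 2, and 180 to 315 with 1 array left out. Between codes 4 and 3 the count of 7 became 4 without the filter, 1 with the median passed on all arrays, 19 with the block, 17 with the block and the uncertain array in set 3, 4 with only both groups fitted and 4 to 8 with 1 array left out. Between codes 2 and 1 the count of 5 became 1 with the median passed on all arrays and 20 with the block and the uncertain array in set 3. Between sets 3 and 1 the count of 166 became 85 after quantile normalization, 5 without the filter, 31 without the trend, 82 and 8 with the uncertain array in set 3 and set 2, and 2 to 688 with 1 array left out. With 1 array left out the interaction count was 0 to 1, and the members called were 0 to 1 between sets 3 and 1 and 3 to 6 in set 2. Without the set 3 array of HLH code 1, nlp-27 passed between sets 3 and 1, adjusted p = 0.048 in limma. Apart from nlp-31 between strains, the block changed no member's call. Quantile normalization moved the median set 2 difference by -0.06 and the share of higher calls from 58.8% to 48.9%. Dim signals limit cnc-1 and cnc-6.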
